A study of Mus musculus with 9 samples.

Results

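The comparison described here sets 3 liver libraries from mice given recombinant human cytoglobin (rhCYGB) over the last 5 weeks of a thioacetamide course against 3 libraries from mice given thioacetamide and saline. The libraries were chosen by their group labels, 6 of the 9 in the series, and the comparison covers all 14731 genes that passed a filter on low counts, of 24532 in the table. All mice were wild-type C57BL/6, and all received thioacetamide (TAA), a liver toxin, into the peritoneum 2 times a week at a rising dose for 10 weeks. rhCYGB was given 2 times a week at 2 mg/kg into the tail vein, and livers were collected 2 days after its last dose. The saline group is called TAA below (replicates 12, 13 and 14) and the treated group is called 5-week rhCYGB (replicates 23, 27 and 28). A further group of 3 libraries had rhCYGB in the last 2 weeks only. No liver without TAA is among the samples, so every change below is a difference between livers that were all exposed to the toxin. The labels give each sample a number but do not say whether every number stands for its own mouse, so the tests measure spread among samples. The age of the mice and the hour of collection are not given in the sources used here.

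Thioacetamide is oxidised to its toxic form in hepatocytes, chiefly by the P450 enzyme Cyp2e1, and repeated dosing kills the cells around the central vein, after which scar tissue forms. Scar matrix is laid down mainly by hepatic stellate cells that turn into contractile, collagen-secreting myofibroblasts, while surviving hepatocytes divide and lose part of their metabolic programme. Cytoglobin is a haem protein of stellate cells that binds oxygen and scavenges reactive oxygen species. Mouse liver genes for glucose, fat and bile acid metabolism also follow the circadian clock, a loop in which Arntl (Bmal1) with Clock or Npas2 switches on the Per, Cry and Nr1d genes, whose proteins in turn repress it.

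Levels are CPM values scaled by edgeR's TMM method, given in the order of replicates 12, 13 and 14 for TAA and 23, 27 and 28 for 5-week rhCYGB. The 6 libraries held 55655727 to 66277335 estimated reads. The 11 defining hepatocyte genes, among them Alb, Ttr and Apob, summed to between 119940 and 134690 CPM in TAA and between 131750 and 169440 CPM in 5-week rhCYGB, and none of them changed by the test. Replicate 23 stood apart from the other 5 libraries, at 77.6 on a first principal component that held 44.1% of the variance, against -44.7 to 11.5 for the rest. Changes are given as log2 fold changes of 5-week rhCYGB over TAA with an approximate standard error (SE), and a gene is said to have risen or fallen only where edgeR's quasi-likelihood F test gave an adjusted p (Benjamini-Hochberg, over all genes tested) under 0.05.

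In 5-week rhCYGB livers, 190 of 14731 genes changed (1.29%), of which 101 rose (0.686%) and 89 fell (0.604%). The risers included the P450 gene Cyp2e1, glycogen synthase Gys2 and peroxisomal enzymes of fat oxidation, with a median change of 0.88 on the log2 scale, and 31 of them rose by more than 2-fold. The fallers included smooth muscle actin, collagen chains, tubulins and mitotic genes, with a median size of 1.24, and 66 of them fell by more than 2-fold. The gene lists used below hold 72 of the 190. Counts of risers and fallers in a list are to be read beside the shares of all tested genes, 0.686% and 0.604%. Of the 190 genes, 189 had groups of libraries that did not overlap, which held for 25% of all tested genes. Their adjusted p-values lay between 0.0361 and 0.04996, close to the threshold, and 2829 genes had an unadjusted p under 0.05.

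The calls rested on all 9 libraries. No gene was called without TAA replicate 13 or 14, any of the 2-week replicates 17, 18 and 19, or 5-week replicate 23 (edgeR, with 1890 to 2855 genes at an unadjusted p under 0.05 in these fits). All 190 genes kept their direction when any library was left out. Since 189 of them had groups that did not overlap, this was largely fixed in advance and adds no support. Without TAA replicate 12 there were 5 calls, without 5-week replicate 28 there were 2, and without 5-week replicate 27 there were 240, of which 129 were among the 190. A fit of only the 6 libraries compared called 1 gene, which was not among the 190. DESeq2's Wald test called 1188 genes, including all 190. The share of rises depended on the scaling, being 53.2% with TMM, 41.6% with upper quartile scaling, 7.54% with library totals alone, and 6.89% and 7.94% on log2(FPKM + 1) and log2(FPKM + 0.1). Scaling by library totals moved the median of all tested genes from 0.01 to -0.21 on the log2 scale, so changes below are relative to the TMM scale.

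**Figure D1:**
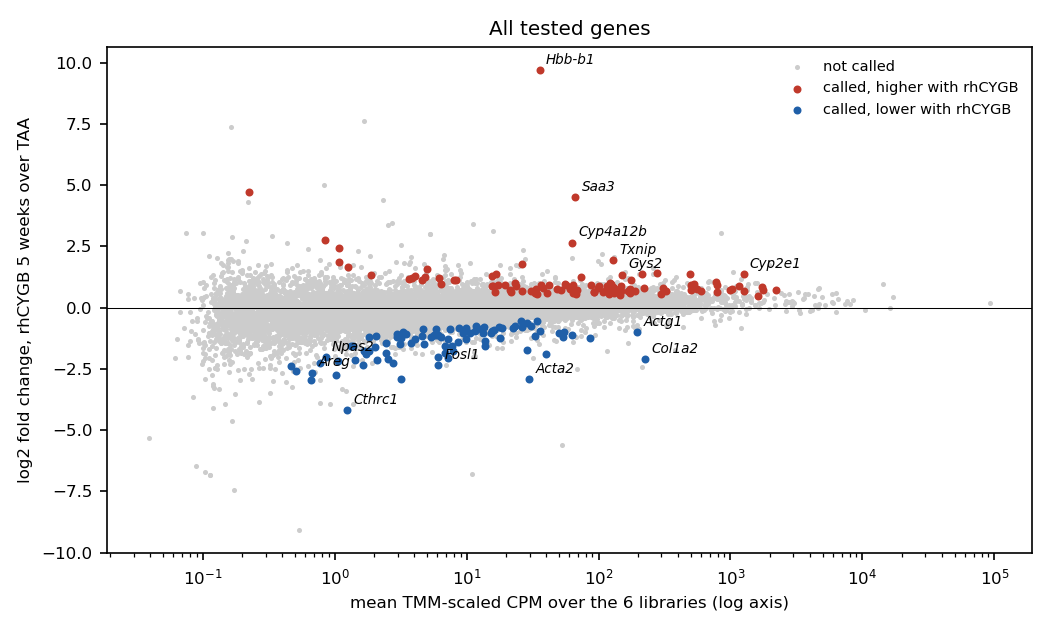
Log2 fold change of 5-week rhCYGB over TAA (vertical axis) against the mean TMM-scaled CPM of the 6 libraries (horizontal log axis) for the 14731 tested genes, with the 101 called rises in red and the 89 called falls in blue. Called rises reach higher mean levels than called falls, and Saa3 and Cyp4a12b lie highest among the called genes other than the low genes at the left and Hbb-b1, whose reads are taken up below.

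Fibrillar collagens and contractile genes of the scar had the lowest list medians, and the mesothelial markers taken up below came next (-1.33). Acta2 encodes smooth muscle actin, the usual marker of activated stellate cells (mm10 chromosome 19, 34240336 to 34255373). It stood at 43.8, 37.6 and 77.1 CPM in TAA and at 3.83, 8.60 and 8.44 CPM in 5-week rhCYGB. Every treated library was far below every TAA library, and the change was -2.93 ± 0.43 (SE, edgeR's quasi-likelihood F test, Benjamini-Hochberg adjusted p = 0.0361, n = 3 against 3), or 7.61-fold lower. In whole liver, fewer cells of a type and less RNA per cell cannot be told apart.

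Acta2 was the only one of 16 tested contractile genes to pass, although 13 of the 16 had treated libraries all below TAA (13.4% of all tested genes did), and the median was -1.56 against 0.01 over all genes. Tagln, an actin-binding protein of smooth muscle, was at 41.2, 37.6 and 74.8 CPM in TAA and 6.03, 15.3 and 15.7 CPM after rhCYGB (adjusted p = 0.0562, edgeR). Myl9, a myosin light chain, went from 16.9, 11.8 and 24.2 CPM to 2.22, 7.01 and 5.73 CPM (adjusted p = 0.0813, edgeR). TAA replicate 14 was the highest library for all of these, and it alone held Actg2 at 5.80 CPM against 1.01 and 0.90 and Cnn1 at 5.78 CPM against 0.55 and 0.41, both smooth muscle genes. The list's median without that library was -1.14. The part of vessel or duct-wall muscle in that library was not tested.

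Many contractile genes carry CArG boxes, the sites of serum response factor, in their promoters. The 250 bases before the start sites of 3 actin or myosin genes are printed to show where the box occurs beside genes that were lower together, from RefSeq on build GRCm38.p6, reading 5′ to 3′ on the gene's own strand, with each CArG box in capitals. The box was searched on both strands as a pair of C bases, a run of A or T bases and a pair of G bases, 10 bases in all. Acta2 lies on the minus strand (chr19:34255374-34255623), Actg1 on the minus strand (chr11:120348496-120348745) and Myl9 on the plus strand (chr2:156775214-156775463).
Acta2: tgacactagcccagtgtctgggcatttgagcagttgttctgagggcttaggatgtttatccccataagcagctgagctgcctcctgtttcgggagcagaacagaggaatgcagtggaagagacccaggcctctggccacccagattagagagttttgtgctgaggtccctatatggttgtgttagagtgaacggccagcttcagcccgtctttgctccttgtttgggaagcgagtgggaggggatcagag
Actg1: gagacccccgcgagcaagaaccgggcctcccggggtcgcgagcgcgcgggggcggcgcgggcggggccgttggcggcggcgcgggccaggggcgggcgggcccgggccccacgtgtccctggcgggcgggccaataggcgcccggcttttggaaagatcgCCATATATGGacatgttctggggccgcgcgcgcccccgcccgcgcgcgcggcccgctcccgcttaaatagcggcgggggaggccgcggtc
Myl9: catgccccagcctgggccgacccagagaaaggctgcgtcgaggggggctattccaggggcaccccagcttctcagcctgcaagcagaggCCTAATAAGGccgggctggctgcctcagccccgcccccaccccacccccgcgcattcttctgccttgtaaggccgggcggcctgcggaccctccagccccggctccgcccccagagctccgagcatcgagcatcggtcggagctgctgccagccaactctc
The box began 90 bases before the start in Actg1 and 161 bases before it in Myl9. The strict form has no match in the Acta2 window, which does hold ccctatatgg and ccttgtttgg, each a single base away from it. Near matches of this kind were not counted in any promoter. Promoters were found for 13 of the contractile genes, and 2 genes held the box (Myl9 and Cnn2). In the 18 cytoskeletal genes with promoters it was held by 1 gene, Actg1. Of all 32851 promoters of this length, 1.47% held it. A match describes the letters only.

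Several collagen chains fell as well. Col1a2, a chain of type I collagen (chromosome 6, 4505618 to 4541543), was at 429.8, 272 and 389 CPM in TAA and 46.8, 92.5 and 116 CPM in 5-week rhCYGB, a change of -2.10 ± 0.42 (SE, edgeR, adjusted p = 0.0495). Of 9 tested fibrillar chains, 3 fell (Col1a2, Col5a1 and Col5a2), against 0.604% of all tested genes. Another 3 had positive changes without passing, and the median was -1.72. Col1a1, the partner chain, lay apart in the same way, at 462, 224 and 390.046 CPM against 29.3, 76.6 and 95.0 CPM, and did not pass (adjusted p = 0.0669, edgeR). In each of these genes replicate 23 was the lowest of the treated libraries, and without it the list's median was -1.39.

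Among 20 basement membrane and other collagen chains 4 fell (0.604% of all tested genes did), 17 had negative and 3 positive changes, and the median was -0.89. Col4a1, a main chain of basement membranes, was nearly constant within TAA at 119.6, 119.7 and 121 CPM and stood at 36.8, 47.3 and 68.6 CPM after rhCYGB (-1.24 ± 0.22, edgeR adjusted p = 0.0427). Col15a1, a collagen of the vessel wall matrix, was at 22.995, 18.4 and 20.5 CPM in TAA and 10.7 CPM in each treated library. Col8a1 and Col12a1 were the other two, with changes of -2.12 and -1.12.

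Matrix glycoproteins and proteoglycans held 5 fallers among 30 tested genes (0.604% of all tested genes fell), and 28 of the 30 had a negative change (median -1.05). Tnc, a glycoprotein deposited in wounds, went from 9.02, 12.8 and 13.3 CPM to 1.77, 2.44 and 4.17 CPM. Thbs1, which activates latent TGF beta, went from 7.49, 10.8 and 13.9 CPM to 1.81, 2.86 and 4.25 CPM. Fbn2, Vcan and Hapln1 completed the set. In all 5 the treated libraries were below TAA, but groups lay apart in 189 of the 190 called genes. Without replicate 23 the median of the list was -0.73.

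Enzymes that build and clear matrix were also lower. Loxl2, which crosslinks collagen, was at 25.5, 26.1 and 24.3 CPM in TAA and 7.76, 10.6 and 13.5 CPM after rhCYGB, and was the only faller among 19 crosslinking and processing genes (median -0.75). The median of 23 proteases and inhibitors was -0.74, and Plat, the tissue plasminogen activator, fell. Plat went from 20.5, 21.8 and 19.4 CPM to 4.35, 8.33 and 7.92 CPM. Adamts4, a protease that cleaves proteoglycans, changed by -2.35 ± 0.36 (edgeR, adjusted p = 0.0361), and Itga6 was the only integrin of 13 to fall.

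**Figure D2:**
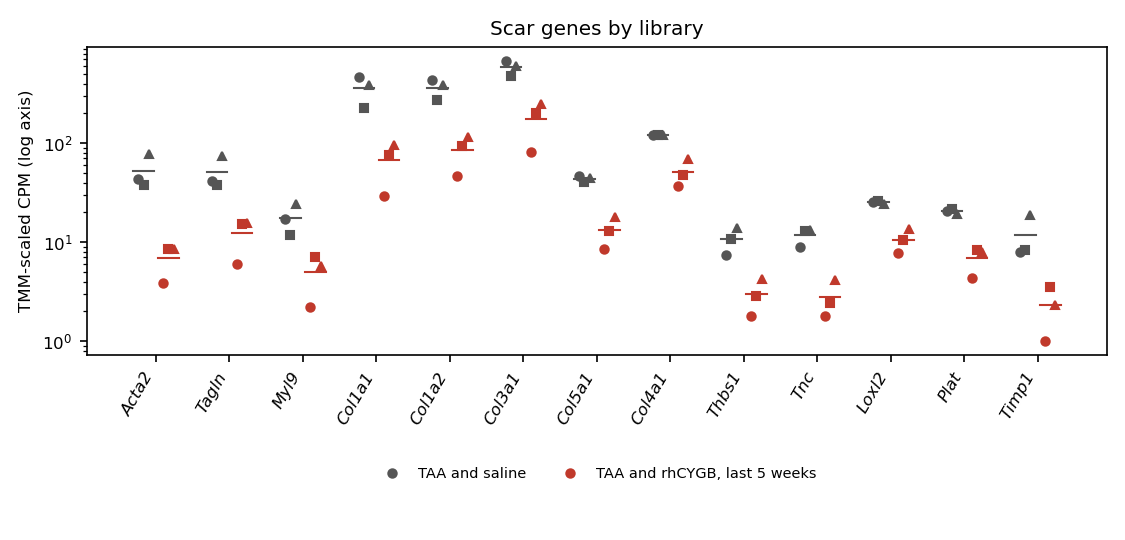
TMM-scaled CPM (log axis) of 13 matrix and contractile genes in each TAA library (grey; circle, square and triangle for replicates 12, 13 and 14) and each 5-week rhCYGB library (red; replicates 23, 27 and 28 in the same order), with horizontal lines at the group means. In each gene the treated libraries lie below the TAA libraries, and the circle of replicate 23 is the lowest.

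Of the named fallers, Cthrc1, a secreted protein of activated stellate cells (chromosome 15, 39076932 to 39087119), had the largest change. Its levels were 2.02, 2.89 and 2.20 CPM in TAA and 0, 0.08 and 0.31 CPM in 5-week rhCYGB, so it was near the limit of detection after treatment. The fitted change of -4.17 ± 0.79 (SE, edgeR, adjusted p = 0.0467) ran from -6.00 to -3.59 as single libraries were left out. Prtn3, a neutrophil granule protease, changed by -2.90 ± 0.48 (edgeR, adjusted p = 0.0361), from 8.52, 3.16 and 5.17 CPM to 0.71, 0.98 and 0.56 CPM. None of the 17 tested genes on the neutrophil list, which does not include Prtn3, changed.

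Markers of other tissues differed in direction. All 9 tested mesothelial markers had negative changes and none passed the test, with a median of -1.33 that was -0.88 without TAA replicate 14, and 3 of them lay apart below TAA (13.4% of all tested genes). Their summed level was 13.1 to 32.5 CPM in TAA, highest in replicate 14, and 5.25 to 13.6 CPM in 5-week rhCYGB, and Krt14 and Bnc1 were below the filter. None of 23 ductular genes passed, with a median of -0.58 that was -0.30 without TAA replicate 14 and -0.37 without 5-week replicate 23, and Krt19, a keratin of bile ducts, was at 7.28, 6.90 and 21.6 CPM in TAA and 1.06, 8.77 and 7.08 CPM after rhCYGB, with overlapping groups. Median changes were -0.40 for 5 tested of 17 markers of striated muscle and 0.10 for 5 of 10 of gallbladder and large ducts. They were 0.35 for 2 of 13 of exocrine pancreas and 0.62 for 4 of 9 of adipocytes. The other members were below the filter, among them the adipocyte genes Adipoq, Lep, Retn, Cfd and Plin1, at 0 to 17 reads. Ctrb1, a pancreas marker below the filter, held 120 reads in TAA replicate 14 and 0 to 6 in each other library. Medians of so few members do not tell how much of a tissue a library held. Pigr, of the gallbladder list, was the only one of these markers to pass, as a rise. The part of these tissues in the fall of the matrix genes was not tested. Without replicate 14 the fibrillar collagen median was -1.70 (-1.72 with all libraries) and the contractile median was -1.14 (-1.56). Leaving out a single library cannot tell what part these tissues had in the others.

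The list of nonmuscle cytoskeleton, annexin and S100 injury genes had 4 fallers among 25 tested genes, against 0.604% of all tested genes. These 4 were all cytoskeletal. All 25 had negative changes, 16 had treated libraries below every TAA library (13.4% of all tested genes), and the median was -0.82. Actg1, the cytoplasmic gamma actin (chromosome 11, 120345687 to 120348495), was at 205, 273 and 306 CPM in TAA and 120.2, 144 and 129 CPM after rhCYGB, a change of -0.99 ± 0.15 (edgeR, adjusted p = 0.0361). Tubb6, a beta tubulin, went from 62.3, 69.0 and 93.8 CPM to 25.5, 39.2 and 32.1 CPM. Flna, the actin crosslinker filamin A, went from 85.3, 81.1 and 90.3 CPM to 30.3, 46.4 and 41.3 CPM, and Tuba1a, an alpha tubulin, changed by -1.05 ± 0.20 (edgeR, adjusted p = 0.0472). Anxa1 at -1.08 and S100a6 at -1.05 did not pass. These genes are transcribed in many liver cell types.

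Cell division genes were lower with little spread between libraries. Of 36 tested, 35 had a negative change and 28 lay apart below TAA (13.4% of all tested genes). Of them 6 fell (0.604% of all tested genes did), namely Cdc6, Plk1, Prc1, Birc5, Top2a and Ccna2. Prc1, which bundles the microtubules of the dividing spindle, was at 19.6, 23.033 and 19.4 CPM in TAA and 9.47, 10.3 and 10.9 CPM after rhCYGB (-1.02 ± 0.16, edgeR adjusted p = 0.0361). Birc5, survivin, went from 19.2, 21.7 and 22.0 CPM to 10.9, 10.9 and 11.2 CPM, so replicate 23 did not differ from its fellows here. The list's median was -0.72, and it stayed between -0.77 and -0.67 as single libraries were left out. Mki67, the Ki-67 antigen of cycling cells, was at 54.1, 57.7 and 56.9 CPM against 35.8, 30.6 and 33.3 CPM and just missed the threshold (adjusted p = 0.0521, edgeR).

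The 14 replication licensing factors gave no call, with a median of -0.44. Their member Mcm10, which starts replication forks, went the other way, from 38.1, 31.9 and 27.2 CPM in TAA to 65.4, 41.9 and 56.4 CPM in 5-week rhCYGB (adjusted p = 0.0832, edgeR). Which cell types were dividing cannot be read from whole liver.

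Injury-responsive transcription factors changed in both directions. Fosl1, an AP-1 subunit, fell from 10.7, 7.70 and 12.2 CPM to 0.97, 3.81 and 1.29 CPM (-2.34 ± 0.46, edgeR adjusted p = 0.0475). Atf3, a stress-induced factor, fell from 9.91, 15.6 and 16.7 CPM to 4.47, 5.78 and 7.11 CPM, and Klf6 fell by 0.64. Klf10, a TGF beta and glucose responsive factor, rose from 9.93, 11.1 and 14.8 CPM to 25.1, 19.2 and 24.4 CPM. The other 18 of the 22 genes did not pass, and the median was -0.34. Areg, an EGF receptor ligand that also activates stellate cells, went from 0.80, 1.23 and 1.48 CPM to 0.17, 0.25 and 0.14 CPM (-2.66 ± 0.42, edgeR adjusted p = 0.0361). It was the only gene of 13 EGF ligands and receptors to change, and its level is low in both groups.

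Immune genes gave few calls. Cx3cr1, a chemokine receptor of infiltrating macrophages, fell from 7.07, 5.92 and 5.88 CPM to 2.18, 3.54 and 2.80 CPM. It was the single faller among 30 scar-associated macrophage genes (0.604% of all tested genes fell). In this list 15 of the 30 lay apart below TAA (13.4% of all tested genes). Resident Kupffer cell genes gave no call among 14, with a median of 0.12 that was -0.11 when scaled by library totals and -0.02 without 5-week replicate 27. Oasl1, an interferon-induced gene, went from 39.8, 44.6 and 53.3 CPM to 16.5, 26.9 and 17.4 CPM and was the only faller of 30 type I interferon targets, 28 of which had negative changes (median -0.55). Osmr, the oncostatin M receptor, was the only one of 25 TNF and interleukin 1 genes to pass (-1.12 ± 0.21, edgeR adjusted p = 0.0472).

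The 7 tested NADPH oxidase subunits had a median of -0.50. Nox4, a subunit found in hepatocytes and stellate cells, differed from the other 6 in having a positive change. It was at 15.4, 18.3 and 13.035 CPM in TAA and 55.3, 25.7 and 30.2 CPM in 5-week rhCYGB (adjusted p = 0.0562, edgeR), with no overlap of the groups and replicate 23 highest.

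**Figure D3:**
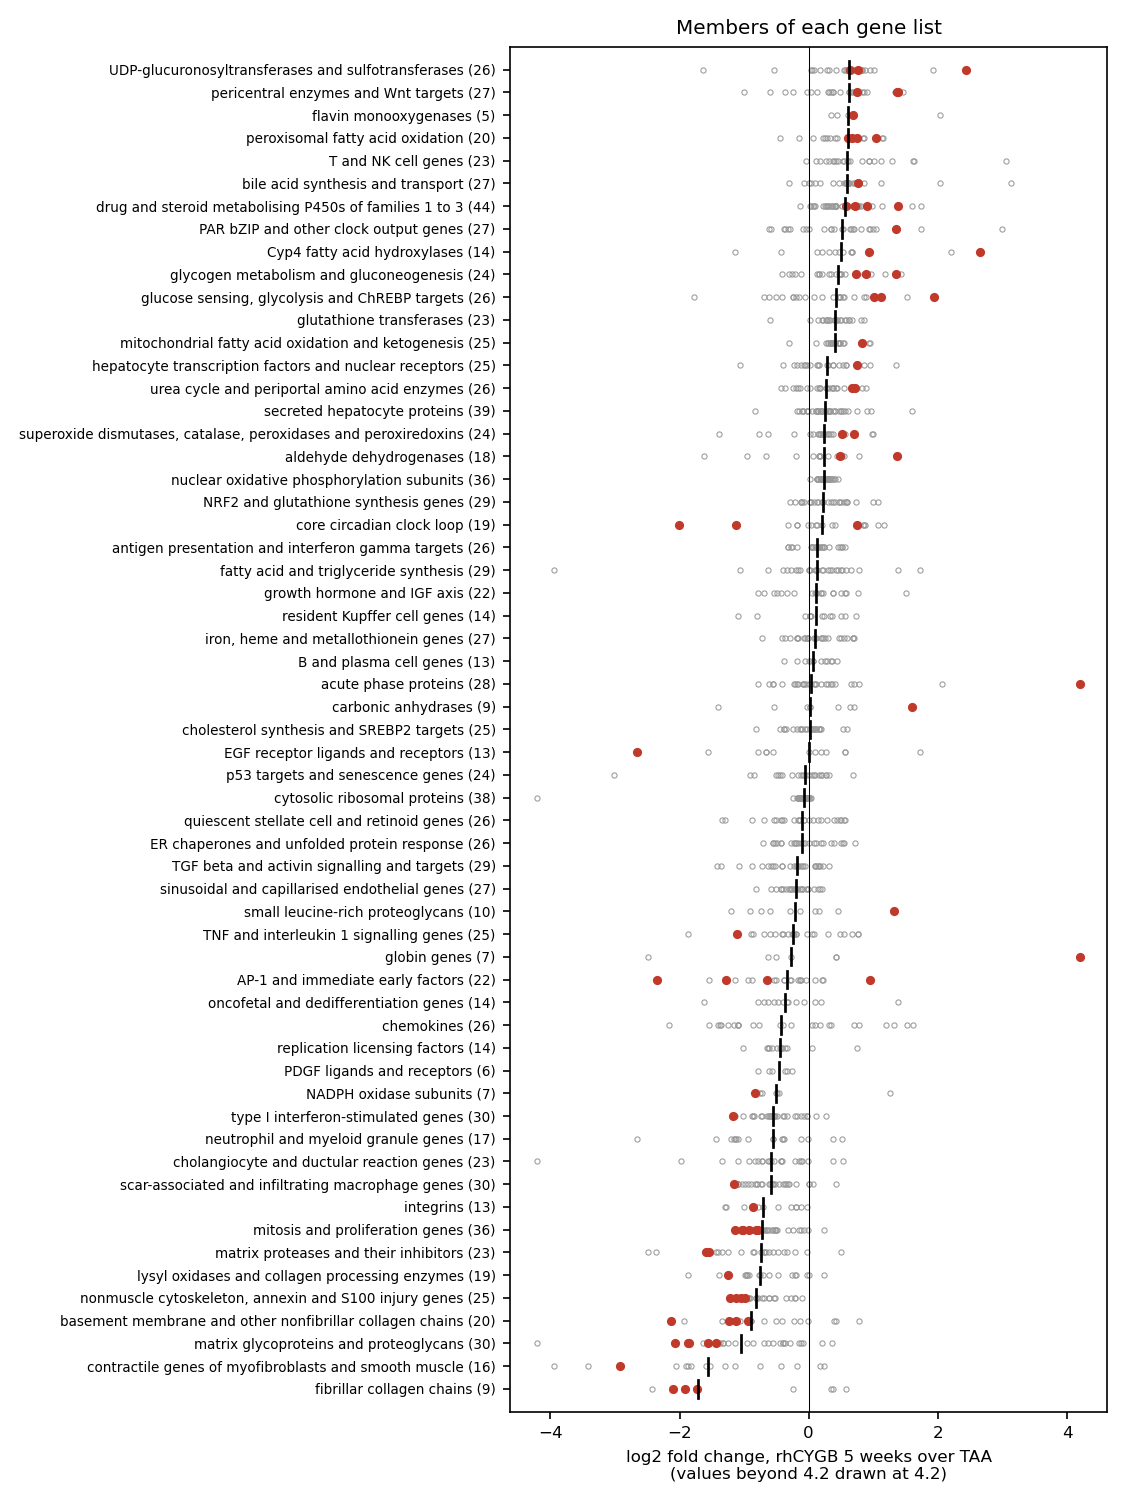
Log2 fold changes of 5-week rhCYGB over TAA for the tested members of gene lists with at least 5 tested genes (number tested in brackets). Lists of cell and tissue markers, such as the mesothelial markers, are left out. Called genes are filled red points, other genes open grey points, and the list median is a black bar. The most extreme values are drawn at a set limit. Among the lists shown, fibrillar collagens and contractile genes have the lowest medians, and glucuronosyltransferases with sulfotransferases and pericentral enzymes the highest.

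Rises were spread over the lists of hepatocyte metabolism. Cyp2e1, the P450 that bioactivates TAA and a gene of hepatocytes around the central vein (chromosome 7, 140763832 to 140774977), stood at 935, 602 and 559 CPM in TAA and at 1512, 2152 and 1780 CPM in 5-week rhCYGB. Treated libraries were all higher, by 1.38 ± 0.21 (SE, edgeR, adjusted p = 0.0361, n = 3 against 3), or 2.60-fold, and leaving out single libraries moved the change between 1.24 and 1.64. Of 27 pericentral genes 3 rose (Cyp2e1, Aldh3a2 and Nr1i3), against 0.686% of all tested genes. Of the 27, 22 had positive changes, 13 lay apart above TAA (11.6% of all tested genes), and the median was 0.62. Nr1i3 encodes CAR, the nuclear receptor that induces drug-metabolising enzymes, and went from 38.6, 49.0 and 48.6 CPM to 73.1, 80.3 and 76.2 CPM. Among 26 urea cycle and periportal genes, Otc and Cyp2f2 rose (median 0.28). Otc, the mitochondrial urea cycle enzyme, went from 266, 248 and 234 CPM to 428, 389 and 374 CPM, so genes from both ends of the lobule were among the rises.

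Drug and steroid metabolising P450s of families 1 to 3 had positive changes in 43 of 44 tested genes, with a median of 0.56. Beside Cyp2e1, 3 rose, which were Cyp2d9, Cyp2d22 and Cyp2f2. Cyp2d9 was at 829, 712 and 876 CPM in TAA and 1612, 1407 and 1496 CPM after rhCYGB. Conjugating enzymes gave a like picture, as 24 of 26 glucuronosyltransferases and sulfotransferases had positive changes, 17 lay apart above TAA (11.6% of all tested genes), and Ugt2b36, Ugt1a6a and Sult2a7 rose (median 0.62). Sult2a7, a sulfotransferase of steroids and bile acids, went from 0.34, 0.50 and 0.17 CPM to 1.96, 1.27 and 2.19 CPM. Fmo1, a flavin monooxygenase, rose by 0.68, and none of 23 glutathione transferases passed (median 0.40). Members of these families are similar in sequence, so single genes of them are uncertain.

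Peroxisomal fat oxidation held the largest share of calls among the fat lists, with 4 of 20 genes risen (0.686% of all tested genes rose). Acaa1b, a peroxisomal thiolase, was at 445, 597 and 482 CPM in TAA and 1149, 929.99 and 1043 CPM in 5-week rhCYGB (1.04 ± 0.14, edgeR adjusted p = 0.0361). Its close relative Acaa1a was tight within groups, at 129, 138 and 124 CPM against 209, 206 and 205 CPM. Phyh, which starts the breakdown of branched fatty acids, and Decr2 were the other two. The median was 0.61, or 0.36 without replicate 23. Of 25 mitochondrial oxidation and ketogenesis genes, 24 had positive changes (median 0.40). Slc27a5, which activates bile acids for conjugation, was the only riser of 27 bile acid genes (median 0.60).

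Cyp4a12b, a fatty acid hydroxylase, was at 16.9, 16.9 and 18.5 CPM in TAA and 198, 48.2 and 81.7 CPM in 5-week rhCYGB, a change of 2.65 ± 0.48 (edgeR, adjusted p = 0.0436). All treated libraries were higher and replicate 23 was the highest by far. Without that library the change was 1.88. Cyp4a12a, its near-identical neighbour, had the same order of libraries (312, 82.5 and 129 CPM after rhCYGB) and did not pass (adjusted p = 0.0562, edgeR), and reads of the pair may be split between them. Among the treated libraries, other hepatocyte genes were also far higher in replicate 23 than in replicates 27 and 28. The transporter Slco1a1 was at 75.4 CPM against 5.45 and 4.61 CPM, and the bile acid enzyme Cyp7b1 at 194 CPM against 42.6 and 68.5 CPM.

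Several single genes of glucose and glycogen handling rose. Txnip, a glucose-induced inhibitor of thioredoxin and of glucose uptake (chromosome 3, 96557957 to 96561857), went from 81.7, 40.7 and 37.3 CPM to 167, 155 and 291 CPM (1.94 ± 0.33, edgeR adjusted p = 0.0379). Gys2, liver glycogen synthase (chromosome 6, 142422613 to 142473109), was among the steadiest of the changes. It stood at 95.8, 85.8 and 75.9 CPM in TAA and 218, 199.9 and 236 CPM in treated livers (1.35 ± 0.16, edgeR adjusted p = 0.0361), and the change stayed between 1.27 and 1.43 as single libraries were left out.

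Ugp2, which makes the UDP-glucose that Gys2 uses, went from 355, 390.3 and 385 CPM to 550.3, 679 and 646 CPM. Slc37a4, the glucose 6-phosphate transporter needed for glucose release, went from 86.0, 81.0 and 76.5 CPM to 139, 144 and 167 CPM. In all, 3 of 24 glycogen and gluconeogenesis genes rose, 5 had negative changes, and the median was 0.45, or 0.28 without replicate 23. From the list of glucose sensing, glycolysis and ChREBP targets 3 of 26 rose, Txnip, Pklr and Slc2a2, while 10 had negative changes, and the median was 0.42. Slc2a2, the GLUT2 transporter, went from 115, 121 and 96.0 CPM to 301, 187 and 231 CPM. Pck1, the gluconeogenic enzyme, was at 989, 821 and 396 CPM against 2164, 1138 and 1698 CPM and did not pass (adjusted p = 0.0974, edgeR).

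Antioxidant enzymes gave 2 rises in 24 genes, with a median of 0.24 that was 0.015 with library totals and 0.13 without 5-week replicate 27. Cat, catalase (chromosome 2, 103453904 to 103485153), was at 1864, 1628 and 1536 CPM in TAA and 3052, 2456 and 2696 CPM after rhCYGB (0.71 ± 0.13, edgeR adjusted p = 0.0427). Msra, which repairs oxidised methionine, went from 117, 119 and 126 CPM to 171, 175 and 170.4 CPM. None of 29 NRF2 and glutathione synthesis genes changed (median 0.22, near 0 with library totals and 0.33 without TAA replicate 14). Mouse Cygb itself was at 29.0, 19.4 and 26.1 CPM in TAA and 8.93, 21.7 and 21.6 CPM in 5-week rhCYGB, with overlapping groups.

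Of the activators of the core clock loop, Arntl and Npas2 fell, and Clock overlapped between the groups. Arntl, the activator of the loop (chromosome 7, 113207465 to 113314126), was at 9.99, 7.29 and 7.87 CPM in TAA and 3.92, 4.15 and 3.502 CPM in 5-week rhCYGB, a change of -1.12 ± 0.18 (SE, edgeR, adjusted p = 0.0361, n = 3 against 3). Npas2, an alternative partner of Arntl (chromosome 1, 39194272 to 39363240), went from 1.495, 1.04 and 1.58 CPM to 0.28, 0.54 and 0.21 CPM (-2.01 ± 0.39, edgeR adjusted p = 0.0472).

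Of the repressors of the loop, Per2, Per3, Cry2, Nr1d1 and Nr1d2 were higher in every treated library, as were the PAR bZIP factors Dbp and Tef, and none of these passed the test. Cry1 lay apart below TAA and Per1 overlapped, also without passing. Nr1d1 (REV-ERB alpha) was at 57.4, 41.9 and 54.4 CPM against 91.7, 99.4 and 83.4 CPM (adjusted p = 0.0669, edgeR), and Per3 was at 18.7, 12.9 and 10.5 CPM against 39.1, 25.9 and 29.6 CPM (adjusted p = 0.0669, edgeR). Dbp, a PAR bZIP output factor, was at 93.9, 58.6 and 82.1 CPM against 124, 199.8 and 160.1 CPM (adjusted p = 0.116, edgeR), and Tef, another, was at 93.8, 81.6 and 64.6 CPM against 186, 129 and 142 CPM (adjusted p = 0.0587, edgeR). In the core list, 9 of 19 genes lay apart above TAA (11.6% of all tested genes) and 3 below (13.4%). The core list's median of 0.21 was -0.01 with library totals and 0.049 without 5-week replicate 23, and 0.46 and 0.48 without TAA replicate 13 and 5-week replicate 27. Among 27 clock output genes 8 lay apart above TAA (11.6% of all tested genes), Gys2 alone rose, and the median was 0.52. Clock genes change with the hour, and whether the groups were collected at the same hour cannot be told from the sources used here.

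Clock output is read from E-boxes, bound by Arntl, and D-boxes, bound by the PAR bZIP factors. The Per3 window is printed because it held 2 D-boxes while the gene was higher in every treated library. It is the minus strand of chr4:151044666-151044915 (RefSeq, GRCm38.p6), 5′ to 3′, with the D-boxes in capitals.
Per3: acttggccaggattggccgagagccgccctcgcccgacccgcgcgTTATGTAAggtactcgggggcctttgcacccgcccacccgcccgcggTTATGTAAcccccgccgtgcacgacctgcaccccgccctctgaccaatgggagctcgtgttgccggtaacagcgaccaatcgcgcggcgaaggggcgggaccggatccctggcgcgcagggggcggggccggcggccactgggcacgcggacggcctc
The boxes, TTATGTAA, began 205 and 158 bases before the start. A D-box, searched on both strands as TTATGTAA or TTACGTAA, was held by 0.931% of all promoters of this length. Per3 alone among the 14 core clock genes with promoters held one. The E-box CACGTG was held by 6.02% of all promoters and, in the core list, by those of Bhlhe41, Ciart, Cry1 and Per1. These are matches of letters and say nothing of binding in these livers.

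**Figure D4:**
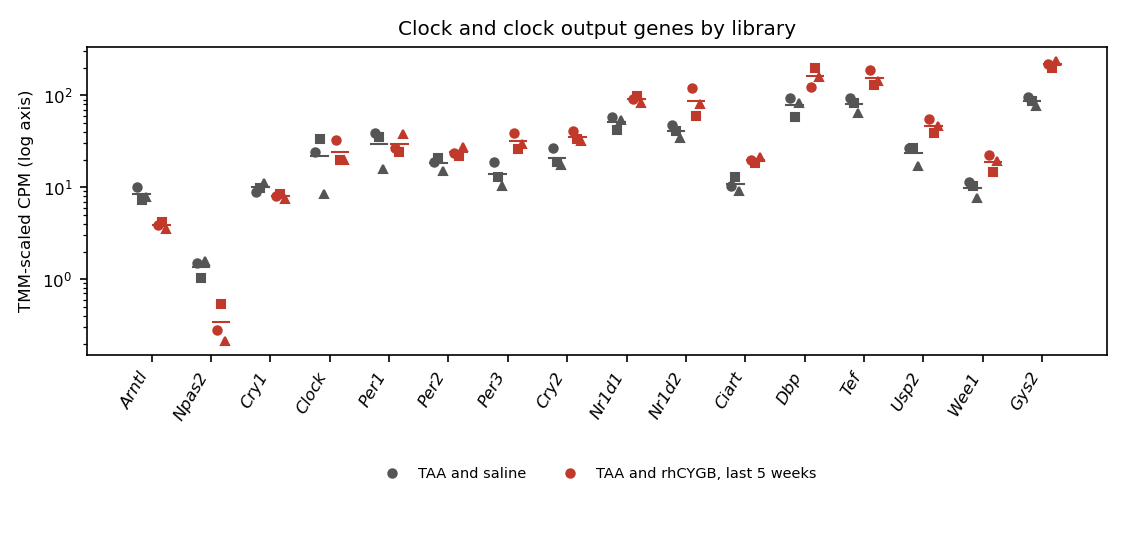
TMM-scaled CPM (log axis) of 16 clock and clock output genes in each TAA library (grey; circle, square and triangle for replicates 12, 13 and 14) and each 5-week rhCYGB library (red; replicates 23, 27 and 28 in the same order), with horizontal lines at the group means. Arntl and Npas2 are lower in every treated library, Nr1d1, Per3, Dbp, Tef and Gys2 are higher, and Clock and Per1 overlap.

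Other large rises were the single risers of their lists or belonged to none. Saa3, a serum amyloid made by macrophages and injured liver (chromosome 7, 46711998 to 46715676), had the largest change of the named risers other than Hbb-b1, taken up below. It was at 7.31, 3.39 and 6.17 CPM in TAA and 46.5, 237 and 101 CPM in 5-week rhCYGB, 4.51 ± 0.78 higher (edgeR, adjusted p = 0.0406), and replicate 27 was the highest. No other acute phase gene of 28 changed, and Saa1 and Saa2 overlapped between the groups. Gpcpd1, a glycerophosphodiesterase, went from 12.7, 13.1 and 9.41 CPM to 48.4, 23.6 and 50.1 CPM, and Car1, a carbonic anhydrase, from 3.30, 2.22 and 1.98 CPM to 7.42, 8.15 and 7.05 CPM. Hsd17b6, a steroid dehydrogenase, changed by 1.39, Slc25a47, a mitochondrial carrier of hepatocytes, by 1.39, and the activin receptor Acvr2b by 1.29. Hnf4aos, antisense to the hepatocyte factor Hnf4a, rose by 1.68, and since the strand used in counting is not recorded its reads cannot be told from those of Hnf4a, which was at 464, 482 and 469 CPM against 645, 556 and 549 CPM.

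Hbb-b1 carried the largest fitted change of all, and its reads went with those of a neighbour. It was at 0.10, 0.06 and 0.10 CPM in TAA and 90.5, 124 and 0.09 CPM in 5-week rhCYGB, while Hbb-bs, listed at the same place on chromosome 7 (103826523 to 103827928, against 103826532 to 103827929 for Hbb-b1), was at 84.3, 98.7 and 165 CPM and 0.25, 0.37 and 61.2 CPM. The sum of both was 84.4, 98.7 and 165 CPM in TAA and 90.7, 125 and 61.3 CPM after rhCYGB, which overlap. The call for Hbb-b1 thus describes which of 2 overlapping beta globin genes received the reads, and it was the 1 called gene whose groups overlapped.

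**Figure D5:**
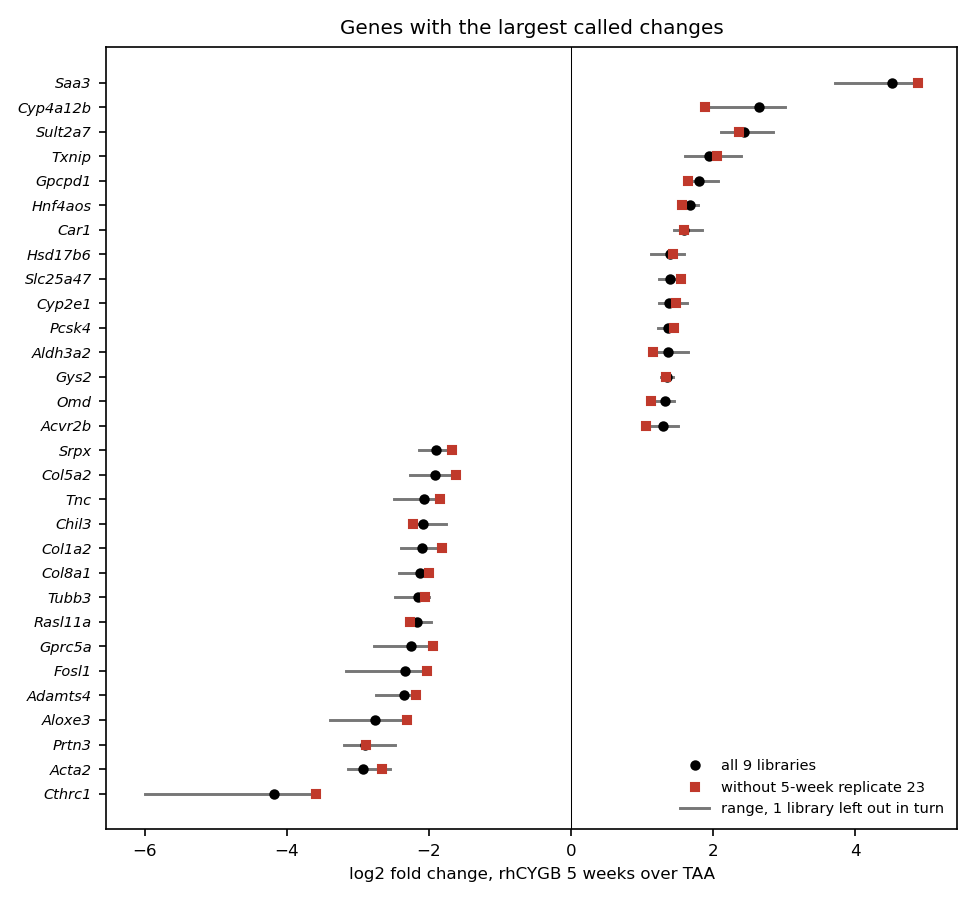
Log2 fold changes of 5-week rhCYGB over TAA for the 15 largest named rises and 15 largest named falls with all 9 libraries (black circles), without 5-week replicate 23 (red squares), and their range as each library was left out in turn (grey lines). The genes were chosen with groups that do not overlap, so it was largely fixed in advance that no line crosses 0. Cthrc1 has the widest range, from -6.00 to -3.59.

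The direct test of 5-week against 2-week rhCYGB asks where the longer course differed from the shorter one. It called 3 genes (0.0204%), Mcm10, Abcd2 and Tjp3, and 3421 genes had an unadjusted p under 0.05. Leaving out single libraries gave between 1 and 1889 calls, the latter without 5-week replicate 27, and DESeq2's Wald test gave 788. Arntl was lower after 5 weeks than after 2 weeks by -1.37 (adjusted p = 0.0645, edgeR), and Gpcpd1 was higher by 2.24 (adjusted p = 0.0645, edgeR), neither past the threshold. Set side by side against the same TAA libraries, which both comparisons share, the cytoskeleton list had medians of -0.82 after 5 weeks and -0.24 after 2 weeks. Clock output genes had 0.52 and -0.03, cell division genes -0.72 and -0.80, and fibrillar collagens -1.72 and -1.61. Differences between these medians were not tested.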

How the data were processed

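Per the submitters' processing notes, the tools were HISAT2 2.1.0 and StringTie 1.3.4d, with FastQC 0.11.7, on build mm10. The values tested are the estimated counts per gene (24532 genes) that the authors deposited. How they were made from StringTie's output and how strand was used are not given in the sources used here. FPKM values deposited by the authors served for alternatives only. The transcript table's length column is in bases as deposited, and 0 columns stayed unmapped.

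Genes were kept by edgeR 4.0.16's filterByExpr (minimum count 10, minimum total 15), counts were rounded and scaled by TMM, and all 9 libraries entered a single quasi-likelihood fit in R 4.3.3 with a term for each of 3 groups (6 residual degrees of freedom), with Benjamini-Hochberg adjustment over 14731 genes. The SE was taken as the absolute log2 change over the root of F. The biological coefficient of variation was 24.9%. On simulated counts for this comparison (14577 genes) the test recovered 53% of genes changed 2-fold and 88% of those changed 4-fold, with 6 false among 147 calls. The simulation drew each gene independently, with no library standing apart as replicate 23 did. Its share of false calls may therefore not hold for these libraries. Alternatives used limma 3.58.1 on log2(FPKM + 1) and log2(FPKM + 0.1), and DESeq2 1.42.0.

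The 66 gene lists (1365 of 1380 symbols in the table), the panel of 41 genes and the members were chosen with earlier results of these data known. Named genes are, of those called with a 6-library mean of 1 CPM or more, groups that do not overlap and a proper symbol, the 15 that rose and 15 that fell furthest, with the panel, and up to 4 called members of each list (otherwise the member with the lowest p). Tagln, Myl9, Nox4, Nr1d2, Tef, Cyp4a12a, Slco1a1, Cyp7b1, Actg2 and Cnn1 were chosen after their values were seen. So were Saa1, Saa2, Hnf4a, Ephx2, Bnip3, Hbb-bs, Abcd2, Tjp3 and Ctrb1. A few genes that the rule names are not reported here.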

Additional observations from a re-analysis of the deposited data

Results flagged for a closer look

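The 5-week and 2-week groups differed by edgeR's quasi-likelihood test of the difference itself, with Benjamini-Hochberg adjustment, in 3 genes. Mcm10, a replication factor, stood at 65.4, 41.9 and 56.4 CPM after 5 weeks and 9.40, 11.022 and 12.6 CPM after 2 weeks, with 38.1, 31.9 and 27.2 CPM in TAA between them. The 5-week minus 2-week difference was 2.31 ± 0.20 on the log2 scale (adjusted p = 0.00835). Abcd2, a peroxisomal transporter of very long fatty acids, was at 18.9, 17.1 and 16.0 CPM after 5 weeks, 7.60, 7.69 and 6.83 CPM after 2 weeks and 21.1, 25.9 and 23.4 CPM in TAA, a difference of 1.23 ± 0.13 (adjusted p = 0.0171). Tjp3, a tight junction protein, was at 20.9, 22.6 and 18.1 CPM after 5 weeks, 44.0, 45.6 and 41.4 CPM after 2 weeks and 28.4, 29.1 and 28.1 CPM in TAA, a difference of -1.09 ± 0.12 (adjusted p = 0.0171). In all 3 genes the 3 groups of libraries did not overlap. The difference between 5 and 2 weeks followed transcript length over all tested genes (Spearman's rho 0.47, a description), against 0.0519 for 5 weeks against TAA. With that trend removed 6 genes were called, 2 of them among these 3.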

How the results depend on the processing

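No paired analysis was possible because the groups share no replicate number. For 5-week rhCYGB against TAA, the 190 calls became 504 with library totals, 77 with upper quartile scaling, 1188 with DESeq2's Wald test, 105 with no filter on low counts, 1001 on log2(FPKM + 1), 693 on log2(FPKM + 0.1), 1 with only the 6 libraries compared and 602 with the transcript length trend removed, where 62.6% rose. Leaving out single libraries gave 0 to 240 calls. Without replicates 17, 18 and 23 together, a setting chosen after seeing the data, there were 7. All 190 genes kept their sign wherever they had a value, which 189 had in the fit of 6 libraries and 182 with at least 1 CPM in 3 libraries. For 5 against 2 weeks, the 3 calls became 788 with DESeq2's Wald test, 5 on log2(FPKM + 1), 0 with only the 6 libraries (edgeR, 2451 genes at an unadjusted p under 0.05), 6 with the length trend removed, 5 without replicates 17, 18 and 23, and 1 to 1889 without single libraries. None of the 80 called genes that the naming rule chose and that are reported here reversed, and their largest adjusted p over the 20 alternatives was 0.199. Nearly all called genes had groups that do not overlap, so their kept signs were largely fixed in advance. Uncalled genes that reversed were Alb (-0.027, -0.037 and -0.037), Igf1 (-0.11, -0.11 and -0.11) and Cela1 (-0.017, -0.032 and -0.037) with library totals, log2(FPKM + 1) and log2(FPKM + 0.1), and Cyp7a1 (-0.14 without 17, 18 and 23, and -0.15 to 1.24 without single libraries, the lowest without replicate 23). DESeq2 and limma were not rerun with libraries left out. The causes were not tested. With 3 libraries a group, 53% of simulated 2-fold changes were recovered.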

Other observations

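Several lists had most members on the same side without a call. All 36 nuclear oxidative phosphorylation genes had positive changes, with a median of 0.24 that was 0.01 when scaled by library totals and 0.12 without 5-week replicate 27. T and NK cell genes were positive in 22 of 23 (median 0.60, or 0.28 without replicate 27), but their summed level was 15.5, 11.8 and 12.9 CPM in TAA and 11.4, 36.5 and 22.3 CPM in 5-week rhCYGB, so replicate 23 was below every TAA library. Sinusoidal endothelial genes were negative in 23 of 27 (median -0.20), and all 6 PDGF ligands and receptors were negative (median -0.47). None of these genes passed edgeR's test in the comparison with TAA.

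Single risers outside the main groups included Pigr, the receptor that carries IgA into bile, at 361, 362 and 318 CPM in TAA and 787, 614 and 574 CPM in 5-week rhCYGB. Ephx2, a soluble epoxide hydrolase, was at 382, 367 and 331 CPM against 806, 616 and 659 CPM. Bnip3, a mitophagy receptor, was at 89.9, 85.6 and 77.7 CPM against 185, 144 and 165 CPM. In each of these the treated libraries were all above TAA, as in nearly all called rises, and replicate 23 was the highest.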
